A study of Capra hircus with 3 samples.

Results

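Antioxidant and oxidative stress genes were followed through lactation in the mammary gland of the Laoshan dairy goat. The set held 10 genes, SOD1, SOD2, CAT, GPX1, GPX3, PRDX1, TXN, NFE2L2, HMOX1 and NQO1, taken by goat NCBI gene ID from 50041 loci, of which 13023 protein-coding genes could be formed. All 10 genes were listed above 0 in every library. The animals were 4-year-old goats in the third lactation, untreated, and gland tissue was taken by surgery under anaesthesia. RNA of 5 goats was mixed in equal parts into 1 library at 10 days after parturition (early), 1 at 90 days (peak) and 1 at 210 days (late). The mixing leaves 1 value per gene and stage, so the spread between goats is unknown, no test was possible, and each difference below is a ratio of 2 pooled libraries without a p-value. Values are FPKM, fragments scaled to transcript length and to the mapped reads of the library, which allow levels of different genes to be set side by side. The study gives read totals for its libraries, but the reads behind each FPKM are not given in the sources used here, so the counting error of a value is unknown.

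The stage of 2 of the columns is uncertain. Differences between the columns labelled peak and late lactation mostly ran opposite to those between the P and L libraries in another table of the study. In that table, L over E had the direction of peak-labelled over early in 117 of 135 genes, and of late-labelled over early in 58. P over E had these directions in 36 and 43 of 67 genes. In a second table the counts were 87 and 34 of 97 for L over E, and 19 and 47 of 54 for P over E. The summed level of the milk genes CSN1S1, CSN3, BTN1A1 and GLYCAM1 was 59480 FPKM in the early library, 19332 FPKM in the peak-labelled library and 77861 FPKM in the late-labelled library. LALBA, the whey protein alpha-lactalbumin, was left out of that sum because it was listed at 0 in the late-labelled library. Each library is named here by its label, and an exchange of the labels would turn every statement on peak into one on late lactation and the reverse. Luminal epithelial markers were present throughout, with KRT8, KRT18, KRT19 and EPCAM summing to 663, 701 and 614 FPKM in the early, peak and late libraries.

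Cells that secrete milk respire heavily and leak superoxide from their mitochondria. Superoxide dismutases turn superoxide into hydrogen peroxide, which catalase, the glutathione peroxidases and the peroxiredoxins then remove, with thioredoxin and glutathione as electron donors. NFE2L2, better known as NRF2, is the transcription factor that switches on many of these genes, among them HMOX1 and NQO1, when its inhibitor KEAP1 is oxidized.

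SOD2 showed the widest range among the 10 genes. Across the 3 libraries the highest value of a gene was from 1.13 to 5.73 times its lowest. In 5 genes (CAT, PRDX1, TXN, NFE2L2 and NQO1) it was under 1.5 times, in 3 (SOD1, GPX1 and GPX3) between 1.5 and 2 times, and in 2 (SOD2 and HMOX1) over 2 times. The peak-labelled library held the highest value for 7 of the 10 genes, the late-labelled for 2 and the early for 1. This order has a background, since 39.4% of the 11087 protein-coding genes with at least 1 FPKM in all libraries were also highest in the peak-labelled library.

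**Figure D1:**
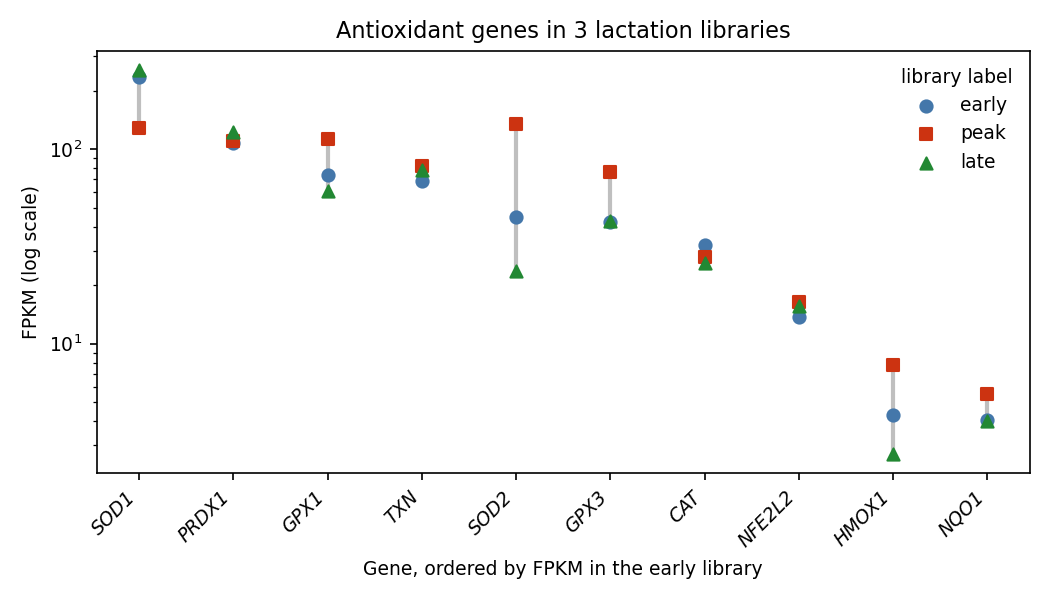
FPKM on a log axis of the 10 antioxidant genes in the libraries labelled early (circles), peak (squares) and late (triangles), 1 pooled library each, with a grey line from the lowest to the highest value. SOD2 spans the widest range, from 23.6 to 135 FPKM, while PRDX1, TXN, NFE2L2 and CAT lie close together.

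SOD1, the cytosolic copper and zinc superoxide dismutase, was the most abundant of the 10 genes in the early and late libraries. It had 235 FPKM in the early library, 129 FPKM in the peak-labelled library and 255 FPKM in the late-labelled library. The peak-labelled value was thus the low one, with a log2 ratio of -0.87 over early lactation, and the late value stood 0.12 above early on the log2 scale. The locus lies on scaffold NW_005100583.1 from 3156954 to 3161474; the build of these coordinates is not named beside the values.

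SOD2, the manganese superoxide dismutase of the mitochondrial matrix, ran the other way. It had 44.5 FPKM in the early library, 135 FPKM in the peak-labelled library and 23.6 FPKM in the late-labelled library. The peak-labelled value was 3.03 times the early and 5.73 times the late value, log2 ratios of 1.60 for peak over early, -0.92 for late over early and -2.52 for late over peak. Among protein-coding genes, SOD2 ranked 878th by FPKM in the early library, 157th in the peak-labelled and 2031st in the late-labelled library. Its ratio of peak over early lactation was the 543rd highest of 13020, and that of late over peak the 564th lowest of 13015. SOD2 is listed on scaffold NW_005100755.1 from 8747495 to 8759406, where no other locus overlaps it or lies within 10000 nt.

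The balance of the dismutases can be read within a library, where the scaling of the library cancels. For each FPKM of SOD1 there were 0.189 FPKM of SOD2 in the early library, 1.05 in the peak-labelled and 0.0924 in the late-labelled library, so the quotient was 11.4 times higher in the peak-labelled than in the late-labelled library. The sum of SOD1 and SOD2 differed far less, at 280, 264 and 279 FPKM in the early, peak and late libraries. SOD3, the extracellular dismutase, had 6.58, 5.96 and 7.55 FPKM in the same order. CCS, which loads copper into SOD1, had 23.1, 23.1 and 26.6 FPKM and did not follow the low SOD1 value of the peak-labelled library.

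Of the enzymes that remove hydrogen peroxide, the glutathione peroxidases GPX1 and GPX3 were highest in the peak-labelled library and CAT was not. GPX1, the cytosolic selenium-containing peroxidase, had 74.0, 112 and 60.9 FPKM in the early, peak and late libraries, log2 ratios of 0.60 for peak over early and -0.88 for late over peak. GPX3, the secreted form found in plasma and milk, had 42.0, 76.1 and 42.6 FPKM, with a log2 ratio of 0.86 for peak over early and 0.02 for late over early. CAT, the haem enzyme of peroxisomes, had 32.0, 27.9 and 26.1 FPKM, all within 1.23 times of each other.

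Within each library, GPX1 was 2.31, 4.01 and 2.33 times CAT in the early, peak and late libraries. GPX1 and GPX3 kept a more even quotient of 1.76, 1.47 and 1.43. GPX4, the peroxidase that reduces lipid hydroperoxides in membranes, was not among the 10 genes and had 76.4, 35.5 and 99.0 FPKM, lowest where GPX1 was highest. The quotient of GPX1 to GPX4 was therefore 0.968, 3.16 and 0.615. GPX7, a peroxidase of the endoplasmic reticulum, had 2.24, 3.74 and 1.04 FPKM, and GPX8 of the same compartment 17.4, 10.0 and 13.4 FPKM.

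PRDX1 and TXN, the cytosolic peroxiredoxin and the thioredoxin that reduces it, were both abundant and both steady. PRDX1 had 108, 110 and 122 FPKM in the early, peak and late libraries. TXN had 68.6, 81.9 and 77.7 FPKM. The log2 ratios of PRDX1 lay between 0.03 and 0.18 and those of TXN between -0.08 and 0.26, and the quotient of PRDX1 to TXN was 1.57, 1.35 and 1.57. Other peroxiredoxins spread more widely than PRDX1. PRDX4, the form of the endoplasmic reticulum, had 116, 53.8 and 74.1 FPKM, whereas mitochondrial PRDX3 had 16.7, 15.1 and 17.4 FPKM. PRDX2 had 84.0, 112 and 82.7 FPKM, PRDX5 had 105, 73.3 and 105 FPKM, and PRDX6 had 43.6, 55.1 and 31.0 FPKM. SRXN1, the sulfiredoxin that repairs over-oxidized peroxiredoxins, had 1.93, 5.99 and 1.53 FPKM, a peak-labelled value 3.11 times the early. TXNIP, which binds and inhibits thioredoxin, had 322, 491 and 237 FPKM.

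NFE2L2 itself was nearly level, at 13.7 FPKM in the early, 16.4 FPKM in the peak-labelled and 15.6 FPKM in the late-labelled library. Its entry is an assembled locus of 89152 nt on scaffold NW_005100620.1 from 7295984 to 7385135, and the same coordinates are listed for another gene ID, without a symbol, at 7.69, 11.2 and 6.18 FPKM. How fragments were divided between these entries is not given in the sources used here. The 9 genes listed for NRF2 and its regulators held no gene with a 2-fold difference in any comparison of FPKM as deposited, where all protein-coding genes gave 17.7% for peak against early, 8.71% for late against early and 25.9% for late against peak. Their median log2 ratio of peak over early was 0.17. Scaled without the 20 most abundant genes, 1 of the 9, MAFF, a small MAF partner of NRF2, was called higher in the peak-labelled library against both others. Over all protein-coding genes that scaling called 17% higher in the peak-labelled than in the early library, and 22.2% lower in late than in peak. KEAP1 had 8.87, 11.8 and 9.10 FPKM, the repressor BACH1 19.7, 17.4 and 21.6 FPKM, and SQSTM1, an autophagy receptor that binds KEAP1, 98.2, 137 and 98.1 FPKM.

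HMOX1, the inducible haem oxygenase, varied where NFE2L2 did not. It had 4.32 FPKM in the early library, 7.75 FPKM in the peak-labelled and 2.71 FPKM in the late-labelled library, so that all values were low and the peak-labelled was 2.86 times the late. The log2 ratios were 0.84 for peak over early, -0.67 for late over early and -1.52 for late over peak. HMOX2, the constitutive form, had 21.1, 17.7 and 21.6 FPKM, and thus stood above HMOX1 in every library.

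NQO1, a quinone reductase, had 4.06, 5.49 and 4.01 FPKM. These are sums of an annotated entry with 2.67, 4.33 and 2.93 FPKM and an assembled entry at the same coordinates with 1.39, 1.16 and 1.07 FPKM, and NQO1 was the only one of the 10 genes with more than 1 locus. The related NQO2 had 7.18, 15.6 and 7.82 FPKM, a log2 ratio of 1.12 for peak over early. GCLC and GCLM, the subunits of the enzyme that starts glutathione synthesis, had log2 ratios of 0.45 and 0.42 for peak over early.

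Set in order of abundance, SOD1, PRDX1, GPX1 and TXN led in the early library, SOD2, SOD1, GPX1 and PRDX1 in the peak-labelled, and SOD1, PRDX1, TXN and GPX1 in the late-labelled library. HMOX1 and NQO1 came last in all libraries. With 1 library per stage it cannot be said which neighbours in these orders differ beyond error. Of the 10 genes, 8 lay above the median of protein-coding genes above 0 in every library, the exceptions being HMOX1 and NQO1; these medians were 7.05, 7.23 and 6.92 FPKM. The 10 genes together summed to 626, 702 and 630 FPKM, and without SOD2 to 582, 567 and 607 FPKM. SOD2 made up 7.11% of the sum in the early library, 19.2% in the peak-labelled and 3.74% in the late-labelled library.

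A difference was called when the FPKM of 2 libraries were at least 2-fold apart, the fold limit of the study's methods without its test. Between the early and peak-labelled libraries 1 of the 10 genes, SOD2, was called, higher in the peak-labelled library. Of 13020 protein-coding genes 17.7% were called, 10.9% higher and 6.8% lower in that library. The median log2 ratio of peak over early was 0.35 over the 10 genes and -0.03 over the 11479 protein-coding genes that reached 1 FPKM in each of the compared libraries. A fold of 1.5 was reached by 5 of the 10 genes, SOD1, SOD2, GPX1, GPX3 and HMOX1, against a background of 36.8%. Between the early and late-labelled libraries 0 of the 10 were called, against 8.71% of 13004 genes, 1.97% higher and 6.74% lower in late. The nearest were SOD2 at -0.92 and HMOX1 at -0.67, the 2 genes that reached a fold of 1.5, against a background of 17.8%. Between the peak-labelled and late-labelled libraries 2 were called, SOD2 and HMOX1, both lower in late. Of 13015 protein-coding genes 25.9% were called, 8.56% higher and 17.4% lower in late. A fold of 1.5 was reached by 5 of the 10 genes, against 44.0%. The median log2 ratio of late over peak was -0.28 over the 10 genes and 0.03 over all. The shares of called genes, 1, 0 and 2 of 10, were no higher than the backgrounds on FPKM as deposited. As a share of the FPKM sum, peak against early gave 2 of 10 against 19.0%. Under the scaling without the most abundant genes, the shares were higher for peak against early and late against peak. For late against early that scaling gave 0 of 10 against 8.64%. By size of the log2 ratio in either direction, SOD2 lay at percentile 93.2, 90.1 and 94.7 of protein-coding genes in the comparisons of peak with early, late with early and late with peak. The 3 comparisons share libraries and are not independent.

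The calls of SOD2 held with ratios centred on the median, as a share of the FPKM sum and without the most abundant genes. The call of HMOX1 for late over peak held as well. GPX1, GPX3 and, for peak over early, HMOX1 crossed the limit with scaling. When each library was scaled to its protein-coding FPKM without the 20 most abundant genes, ratios moved by 0.27 for peak over early and by -0.26 for late over peak on the log2 scale. This shift was the same for every gene. It took the median over all protein-coding genes from 0.01 to 0.28 for peak over early, and from -0.03 to -0.28 for late over peak. Under that scaling 3 of the 10 genes were called between early and peak (SOD2, GPX3 and HMOX1) and 4 between peak and late (SOD2, HMOX1, GPX1 and GPX3). Over all protein-coding genes that scaling called 21.2% and 27.9%, below the shares of the 10 genes. CAT and PRDX1 then also had their highest value in the peak-labelled library, CAT with a log2 ratio of 0.08 for peak over early and PRDX1 with -0.11 for late over peak. The share of all protein-coding genes highest in that library was computed only for FPKM as deposited, so this placement has no background here. With the labels of peak and late exchanged, SOD2 had a log2 ratio of -0.92 for peak over early, 1.60 for late over early and 2.52 for late over peak.

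**Figure D2:**
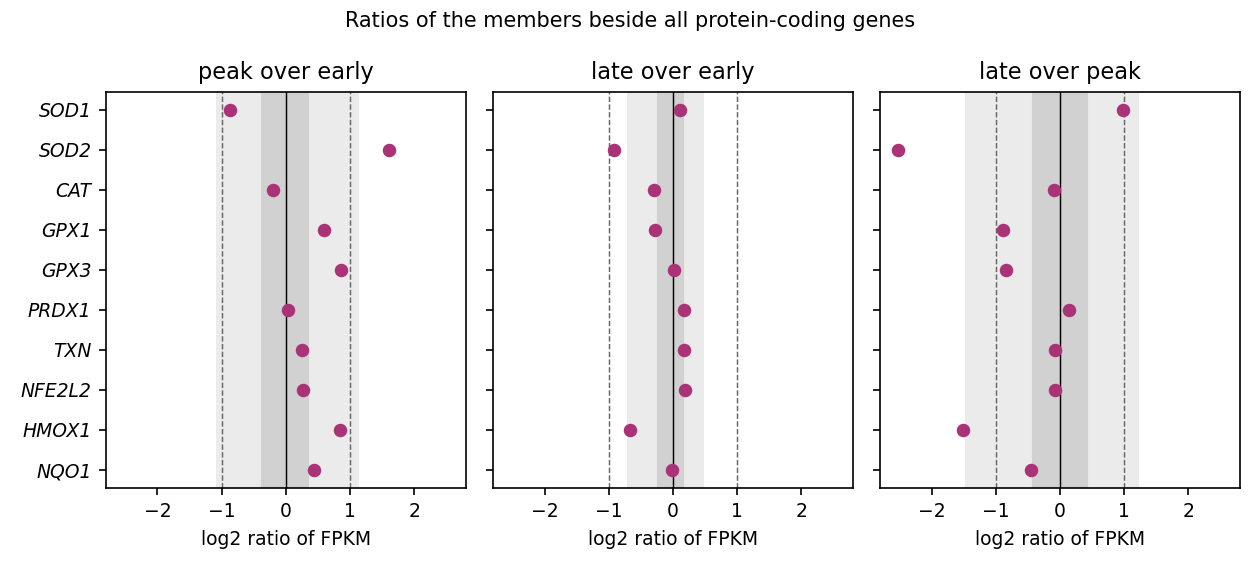
Log2 ratios of FPKM (points) of the 10 genes in the 3 comparisons, with the central 50% (dark band) and central 90% (light band) of protein-coding genes that reached 1 FPKM in each compared library, and dashed lines at a 2-fold difference. SOD2 lies outside the light band in all comparisons, and HMOX1 in late over peak, just past the band's edge at -1.46.

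The pathway was read more widely from a list of 76 genes in 12 roles, the 10 genes included, of which 66 were listed. Between the early and peak-labelled libraries 15 of the 66 (22.7%) were at least 2-fold apart, 5 higher and 10 lower in the peak-labelled library. The higher were SOD2, SRXN1, NQO2, ME1 and NOX4, and the lower GPX4, PRDX4, GSS, GLRX, GLRX2, MGST2, TKT, IDH1, XDH and NCF4. The split depended on scaling: it was 7 higher and 8 lower with FPKM as a share of the sum of all loci, and 12 higher and 5 lower when scaled without the 20 most abundant genes. Over all protein-coding genes 13.8% were higher and 5.21% lower as a share of the sum, and 17% and 4.24% without those 20 genes. Between the peak-labelled and late-labelled libraries 17 (25.8%) were called, 8 higher and 9 lower in late, or 5 higher and 15 lower under the last scaling. Over all protein-coding genes the shares on FPKM as deposited were 17.7% and 25.9%. For peak against early these were 10.9% higher and 6.8% lower in the peak-labelled library. For late against peak they were 8.56% higher and 17.4% lower in late, or 5.72% and 22.2% under the last scaling.

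Of the 9 genes listed for glutathione synthesis and recycling, 4 were at least 2-fold lower in the peak-labelled than in the early library and none was higher, against 6.8% lower and 10.9% higher over all protein-coding genes. With FPKM as a share of the sum of all loci or centred on the median, SLC7A11 was called higher beside the same 4 lower genes, and without the 20 most abundant genes 2 were lower (GSS and MGST2) and 1 higher (SLC7A11). Over all protein-coding genes 5.21% were lower and 13.8% higher as a share of the sum. These shares were 6.44% and 11.3% when centred, and 4.24% and 17% without the 20 genes. On FPKM as deposited, the median log2 ratio of peak over early of the 9 glutathione genes was -0.97. GSS, glutathione synthetase, had 45.4, 11.7 and 47.5 FPKM in the early, peak and late libraries, a log2 ratio of -1.96 for peak over early. The glutaredoxins GLRX and GLRX2, which use glutathione to reduce protein disulfides, had ratios of -1.18 and -1.17, and the microsomal glutathione transferase MGST2 -1.33. SLC7A11, the cystine importer that feeds glutathione synthesis, went the other way with 1.03, 2.06 and 0.822 FPKM. So did GCLC, with 3.95, 5.40 and 4.75 FPKM, and GCLM, with 5.37, 7.18 and 6.14 FPKM. Of the 9 genes, 3 were thus above and 6 below their early value in the peak-labelled library.

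Genes that supply NADPH, the reductant of the thioredoxin and glutathione systems, counted 2 called lower and 1 called higher in the peak-labelled library among 5 listed, or 1 lower (IDH1) and 1 higher when scaled without the 20 most abundant genes. The shares over all protein-coding genes were 6.8% lower and 10.9% higher, or 4.24% and 17.0% under that scaling. IDH1, cytosolic isocitrate dehydrogenase, had 140, 51.8 and 157 FPKM, and TKT of the pentose phosphate pathway 202, 90.1 and 196 FPKM. ME1, malic enzyme, was the exception with 0.996, 2.39 and 2.43 FPKM. IDH1 also supplies NADPH for milk fat synthesis, which this gland makes in quantity.

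Sources of reactive oxygen species differed in both directions. XDH, xanthine oxidoreductase, which is also a structural protein of the milk fat globule, had 1558, 509 and 2148 FPKM. NOX4, an NADPH oxidase, had 1.08, 2.75 and 0.677 FPKM. Of the phagocyte oxidase subunits, NCF1 had 2.68, 4.04 and 1.68 FPKM, whereas NCF4 had 39.7, 14.0 and 39.0 FPKM, a pattern opposite to NCF1.

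**Figure D3:**
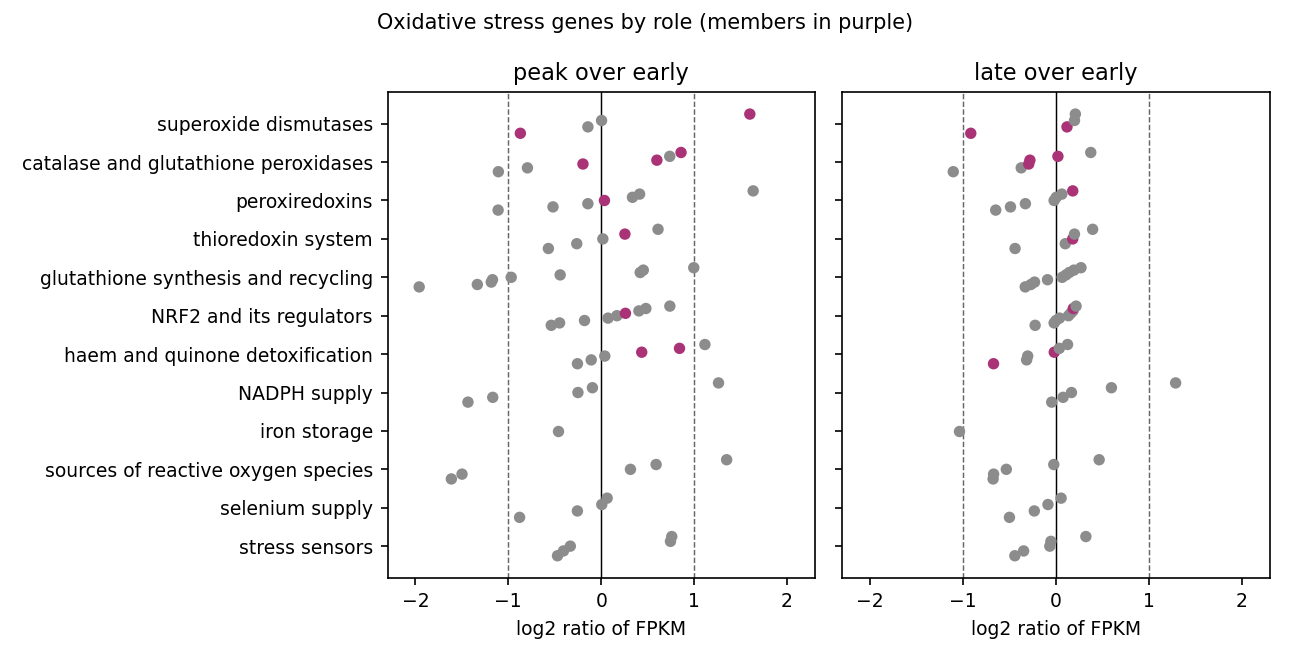
Log2 ratios of FPKM for 66 listed oxidative stress genes, grouped by role, for peak over early (left) and late over early (right), with the 10 genes of the set in purple and dashed lines at a 2-fold difference. Ratios spread more widely for peak over early, where 15 genes were past the lines, than for late over early, where 3 were. All protein-coding genes also did, with 17.7% and 8.71% at least 2-fold apart.

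Between the early and late-labelled libraries 3 of the 66 genes (4.55%) were called, against 8.71% of all protein-coding genes. GPX7 and FTL were lower and ME1 higher in late. As a share of the sum of all loci ME1 alone remained. The median log2 ratio over the 66 genes was -0.05 for peak over early, -0.01 for late over early and 0.11 for late over peak. FTL, the light chain of the iron store ferritin, had 44.0, 31.9 and 21.3 FPKM. SELENOP, which carries selenium to tissues for the glutathione peroxidases, had 63.5, 66.3 and 44.8 FPKM.

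For each of the 10 genes, the listed gene with the closest pair of log2 ratios (peak over early and late over early, 3 libraries) was found by distance in log2 units. For SOD2 it was NOX4 at 0.35, followed by SRXN1 at 0.59 and HMOX1 at 0.80. For SOD1 it was MGST3 at 0.10, for GPX1 and GPX3 MAFF at 0.15 and 0.27, for HMOX1 SESN3 at 0.25, and for CAT BLVRA at 0.09. The closest to PRDX1 was TXNRD2 at 0.02, the closest to NQO1 was PRDX2 at 0.02, and TXN and NFE2L2 were closest to each other at 0.0086. The smallest distances belonged to genes that hardly varied.

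Within 10000 nt of the 10 genes, 14 other entries were listed around 9 of them, 10 with a gene ID and 4 without. Beside CAT lay ELF5, a transcription factor of milk-secreting cells, which had 879, 244 and 875 FPKM at a distance of 8321 nt while CAT hardly varied. TNIP1, 1108 nt from GPX3, had 23.2, 28.6 and 26.2 FPKM. It was also highest in the peak-labelled library, but with a log2 ratio over early of 0.30 against 0.86 for GPX3. SCAF4, 2954 nt from SOD1, had 2.77, 3.10 and 2.99 FPKM.

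The summed markers of immune cells differed in the same direction as SOD2 and HMOX1, though not every single marker did. This direction was not particular to immune cells. Luminal sums of 663, 701 and 614 FPKM and basal sums of 185, 193 and 169 FPKM (early, peak, late) shared it, with smaller differences. Fibroblast sums (616, 517 and 502), endothelial sums (117, 104 and 126) and adipocyte sums (18.1, 5.85 and 6.41) did not. Among fibroblast markers DCN and PDGFRA shared it, while COL1A1, COL1A2 and COL3A1 were lowest in the peak-labelled library. All 7 listed macrophage markers of 9 were highest in the peak-labelled and lowest in the late-labelled library, with a summed level of 165, 288 and 87.4 FPKM in the early, peak and late libraries, and CD163 and MARCO were not found. T cell markers summed to 13.8, 36.8 and 5.63 FPKM over 4 genes, of which CD3E went the other way, listed at 0 in the early and peak-labelled libraries and at 1.43 FPKM in the late-labelled. The 4 neutrophil markers found of 5 summed to 13.0, 24.9 and 5.30 FPKM, a sum carried by S100A8 and S100A9. S100A8 was listed at 0 in the late-labelled library, and MPO was not found. CSF3R had 2.47, 2.44 and 2.70 FPKM, and CXCR2 had 1.02, 1.11 and 0.762 FPKM. Macrophages and neutrophils carry SOD2 and HMOX1 as well, and in tissue RNA fewer cells of a type and less RNA per cell cannot be told apart. The part of these cells in the SOD2 and HMOX1 ratios was not tested. Red blood cells, which hold much CAT, PRDX2 and SOD1, were covered by 1 of 10 marker symbols, HBBC, at 0.890, 2.44 and 0.592 FPKM.

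**Figure D4:**
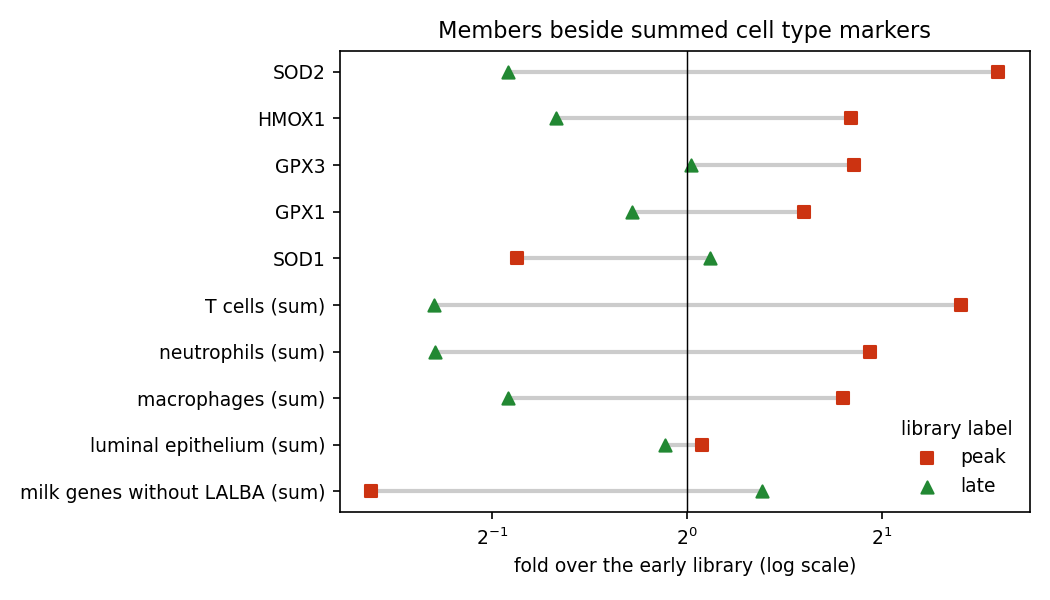
Fold over the early library, on a log axis, in the peak-labelled (squares) and late-labelled (triangles) libraries for 5 of the antioxidant genes and for summed cell type markers. SOD2 and HMOX1 lie above 1 in the peak-labelled and below 1 in the late-labelled library, as do the macrophage, neutrophil and T cell sums. The luminal epithelium sum does so too, at 1.06 and 0.925. SOD1 and the milk genes without LALBA lie on the opposite sides.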

How the data were processed

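Per the submitters' processing notes and methods, the authors trimmed reads with Trimmomatic, mapped them with TopHat2 2.0.9, assembled them with Cufflinks 2.1.1 and Cuffmerge, and deposited FPKM from Cuffdiff for 50041 loci, 1 column per stage. Of the values written with 7 digits, 95.7% to 99.3% per library ended in 5, which the sources used here do not explain, so that a value may be a mean of more than 1 estimate. Columns were assigned by label. Loci of 1 gene ID were summed and symbols taken from the gene table of ARS1.2, in which 14403 of 15274 loci with a single ID matched. None of its coordinates were used. Ratios are of FPKM with 0 set to 0.001. No test was run. Fold counting was tested on simulated data. The 10 genes and the gene lists were chosen with earlier results of these data known. Named are the 10 genes, list genes at least 2-fold apart with at least 1 FPKM in either library, and the nearest patterns. Further genes of the same families or roles are named in part, not in full. SELENOP and SELENOW were matched by their older symbols. Of the list, 10 symbols were not found and were not analysed here. Alternatives are in the closing section. Python 3.11.15, numpy 2.4.6, pandas 2.3.3 and matplotlib 3.10.9 were used.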

Additional observations from a re-analysis of the deposited data

How the results depend on the processing

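With a fold limit of 1.5 in place of 2, 5 genes of the set were called for peak over early, 2 for late over early and 5 for late over peak, and 29, 9 and 32 genes of the pathway list. That limit called 36.8%, 17.8% and 44.0% of all protein-coding genes. A limit of 4 gave 0, 0 and 1 for the set, and 0, 0 and 4 for the list. The share of all protein-coding genes past that limit was not computed, so these counts have no background. As a share of the sum of all loci, 2 genes of the set were called for peak over early (19.0% of all protein-coding genes), and 1 of the list for late over early (8.12%). Scaling without the 20 most abundant genes gave 3 of the set for peak over early (21.2% of all protein-coding genes), and 4 for late over peak (27.9%). A pseudocount of 1 left 1 list gene for late over early. With the peak and late labels exchanged, the set gave 0 for peak over early and 1 for late over early, and the list 3 and 15. The exchange also reversed SOD2 to -0.92 for peak over early and 2.52 for late over peak, and HMOX1 to 1.52 for late over peak. A pseudocount of 0.1, a minimum of 1 FPKM, the highest locus alone and centring on the median kept each of these counts within 1.5 times its value. The counting error of a value cannot be stated, since the reads behind each FPKM are not given in the sources used here. No paired analysis was possible because there was a single pooled library for every stage, and for the same reason no replicate could be left out.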
